A study of Mus musculus with 14 samples.

Results

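The 35 genes described here belong to the type I interferon response of the mouse, and all 35 were found by their symbols among the 24394 named genes of the deposited table. They were followed in microglia, the resident macrophages of the brain, of C57BL/6 mice aged 18 months. The mice had received either control IgG or a blocking antibody to CD22, a sialic acid receptor that restrains immune cells, by osmotic pump into the cerebrospinal fluid for 1 month. About 20000 living cells positive for CD11b and low in CD45 were sorted from the hemibrain opposite the cannula and sequenced after amplification of their cDNA. There were 7 libraries in each group, called by their replicate numbers. Whether a library stands for its own animal is not stated in the labels, and p-values below measure only the spread between these samples. The comparison asks what a month of CD22 blockade did to microglial transcripts, with IgG infusion as the control that shares the pump, the cannula and the age.

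Type I interferons are secreted proteins that bind the receptor made of Ifnar1 and Ifnar2. The kinases Jak1 and Tyk2 then phosphorylate STAT proteins such as Stat2, which acts with Irf9 in a complex that binds the interferon-stimulated response element in the promoters of target genes. The targets include sensors of foreign nucleic acid, proteins that block viral RNA and viral entry, and inhibitors that shut the pathway down again. In the brain, microglia are among the cells that respond to interferon, and the response is known to grow with age.

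All libraries were rich in microglial markers, and some stood apart. The normalized counts of a library came to between 27394162 and 29235291, and the reads recovered for 13 libraries ranged from 20221836 to 38101421. The 10 microglial markers, which include P2ry12 and Tmem119, summed to between 1822320 and 2172920 normalized counts. The 5 neutrophil markers in the table summed to between 3.34 and 40365 in the IgG libraries and to between 0 and 7595 in the anti-CD22 libraries, with the highest sums in IgG replicates 1 and 7. Anti-CD22 replicates 1, 2 and 3 stood apart in another way. In these libraries the deviation of a gene from its mean over all libraries was higher the longer its transcript, with Spearman correlations across genes of 0.31, 0.29 and 0.33. With the share of G and C bases (GC) the correlations were -0.31, -0.40 and -0.36. Length correlations of the opposite sign were -0.27 in anti-CD22 replicate 7, -0.26 in IgG replicate 6 and -0.23 in IgG replicate 4. Across all genes with a length, the group difference followed transcript length with a correlation of 0.36 and GC with one of -0.31, and genes are not independent replicates.

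The promoters of several of the genes carry a textbook interferon element, and 4 are shown because they hold it and belong to the best studied targets or factors. The core searched was GAAANNGAAA on both strands (TTTCNNTTTC when read from the other strand), in the 250 bases before the start site in RefSeq sequences of GRCm38.p6. Each stretch runs 5′ to 3′ on the strand of its gene, from 10 bases before the farthest match to the last base before the start site, and capitals mark the matches. Ifit3 lies at chr19:34583363-34583528 on the + strand, Isg15 at chr4:156200819-156200906 on the - strand, Rsad2 at chr12:26456453-26456582 on the - strand and Stat2 at chr10:128270266-128270497 on the + strand. Ifit3b, at chr19:34607759-34607956 on the + strand, was added after its values were seen, to be set beside Ifit3.
Ifit3: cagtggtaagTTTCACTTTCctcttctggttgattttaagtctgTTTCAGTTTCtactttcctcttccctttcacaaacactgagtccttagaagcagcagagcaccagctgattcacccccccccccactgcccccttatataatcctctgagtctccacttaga
Ifit3b: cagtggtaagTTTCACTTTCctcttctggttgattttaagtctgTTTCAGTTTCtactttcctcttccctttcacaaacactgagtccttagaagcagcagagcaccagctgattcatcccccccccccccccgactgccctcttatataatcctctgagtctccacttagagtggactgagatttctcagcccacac
Isg15: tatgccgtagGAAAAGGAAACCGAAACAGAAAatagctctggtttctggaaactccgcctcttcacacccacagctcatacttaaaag
Rsad2: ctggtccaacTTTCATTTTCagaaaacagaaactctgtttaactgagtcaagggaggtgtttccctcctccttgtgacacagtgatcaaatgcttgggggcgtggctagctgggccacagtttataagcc
Stat2: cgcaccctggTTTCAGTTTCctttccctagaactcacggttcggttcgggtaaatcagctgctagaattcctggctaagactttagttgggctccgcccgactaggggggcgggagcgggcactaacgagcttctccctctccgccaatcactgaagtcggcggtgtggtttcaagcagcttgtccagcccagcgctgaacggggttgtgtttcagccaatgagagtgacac

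Ifit3 and Ifit3b each held 2 matches, 34 bases apart, and the 54 bases from 10 before the first match to the end of the second were identical in both genes, at 54 of 54 positions. Isg15 held 3 matches that overlap each other, the farthest at -78 and the nearest at -66 from the start site. Rsad2 held 1 match at -120, and Stat2 held 1 at -222. Of the 25 members with an entry in the promoter table, 12 held the core, which is 48% of them, against 3.33% of the genes tested and 3.46% of all genes in the table. The other 7 with a match were Ifit1, Oas1a, Oas3, Bst2, Trim30a, Slfn5 and Slfn8. Of the other pathway genes listed further on, 30.5% held it. Genes without a match, such as Irf7, Irf9 and Ifit2, lack these letters in this window only. The genes with no entry were Oas2, Mx1, Mx2, Ifi204, Ifi27l2a, Usp18, Zbp1, Rtp4, Dhx58 and Parp14. A match is a description of the sequence and not a site of binding.

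All 35 genes had a mean of at least 10 normalized counts and were tested. Of these, 20 had a mean above 500 normalized counts and 5 had one below 100. Levels of different genes were compared per kilobase of the longest annotated transcript, which is not measured in these cells. On that scale Bst2, the membrane tether also called tetherin, was highest at 2602 normalized counts per kilobase. Ifit3 followed at 1246, the factor Irf9 at 922, Ifitm3 at 874 and Ifi27l2a at 839.9. Irf9, Ifitm3 and Ifi27l2a did not differ on this scale beyond their spread between libraries. The 5 lowest were Mx2 at 11.2, Oas3 at 11.6, Oas2 at 12.1, Ifi44 at 13.2 and Mx1 at 15.5. Classical interferon targets therefore spanned a wide range in the same libraries, with Isg15 in the middle at 179 normalized counts per kilobase.

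**Figure D1:**
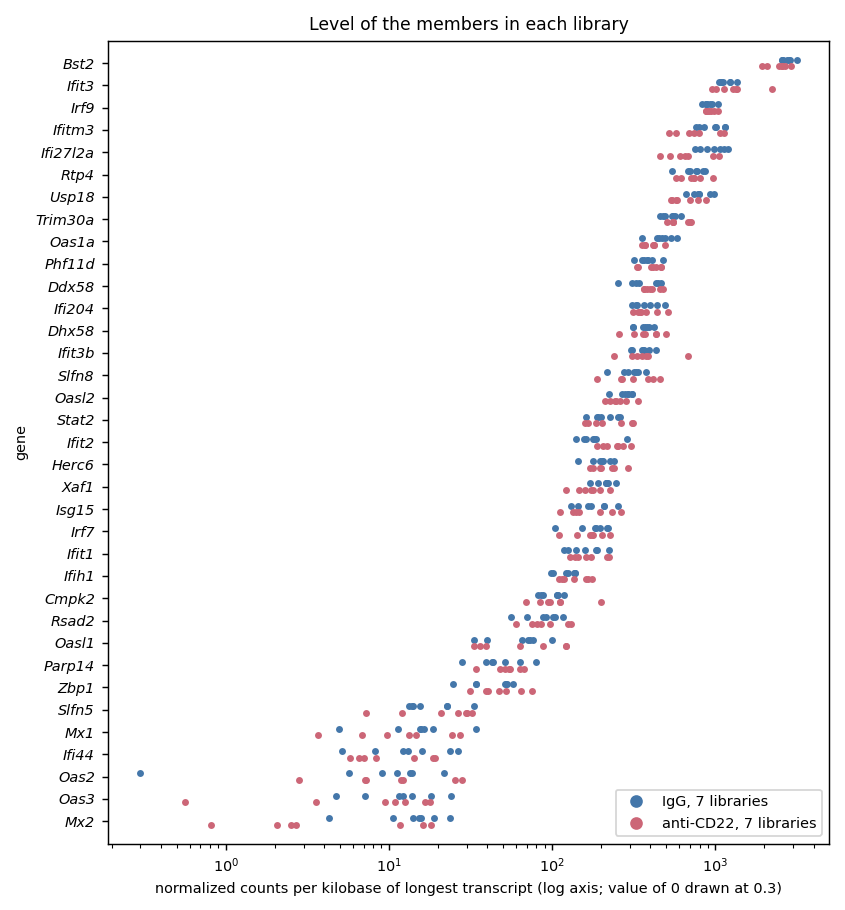
Normalized counts per kilobase of the longest transcript (log axis) for each of the 35 genes, 1 point per library, 7 IgG and 7 anti-CD22. Bst2, at a mean of 2602, lies at the top, and Mx2, Oas3, Oas2, Ifi44 and Mx1 form the low end. The points of the groups overlap in every row, and the library in which Oas2 was at 0 (IgG replicate 5) is drawn at the left edge.

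None of the 35 genes differed between the groups past the threshold. With limma, 0 of 35 had an adjusted p under 0.05, against 1 gene of 11646 tested (0.00859%), the immediate early gene Ier2, which is not an interferon response gene. The lowest adjusted p among the members was 0.281, for Ifit2. At an unadjusted p under 0.05, 4 members were lower with anti-CD22 (11.4% of members, against 5.95% of all genes tested) and 1 was higher (2.86%, against 6.80%). In 0 of 35 members did the groups fail to overlap, while 0.258% of all genes tested had groups that did not overlap. Anti-CD22 means were higher than IgG means on the log2 scale for 21 members and lower for 14. The median log2 fold change of the members was 0.03, beside 0.00 over all genes tested. Single libraries set its sign, since it was -0.03 without anti-CD22 replicate 5, with 20 members lower, and -0.01 without replicate 1. The edgeR and DESeq2 tests on recovered reads also called 0 members, although DESeq2 gave no adjusted p for 9 of them. Each had 4 members at an unadjusted p under 0.05. Over all genes edgeR had 598 higher and 429 lower at that level, of 11646. DESeq2 had 699 higher and 614 lower, of 15835. In sorted cell pools such as these, fewer cells with a transcript and less of it per cell cannot be told apart.

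**Figure D2:**
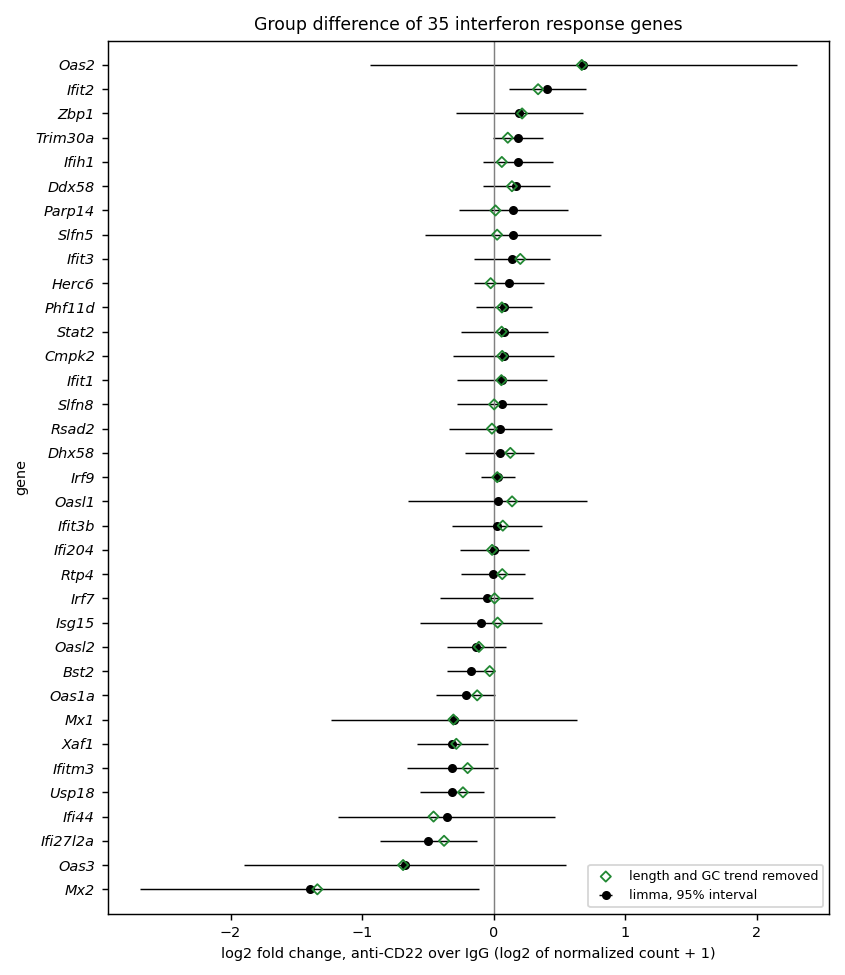
Log2 fold change of anti-CD22 over IgG for each of the 35 genes, ordered by size, from the limma fit with its 95% interval (filled points) and after removal of the length and GC trend (open diamonds). Ifi27l2a, Usp18, Xaf1 and Mx2 lie below 0 and Ifit2 above it with intervals that leave out 0 before adjustment, and the wide intervals belong to the low-count genes Mx2, Oas2, Oas3, Mx1 and Ifi44.

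The 3 transcription factors of the pathway did not differ between the groups past the threshold. Irf9, the DNA-binding part of the factor complex (chromosome 14: 55603571 to 55610030, GRCm38), stood at 3524 ± 269 (IgG) and 3607 ± 242 (anti-CD22) normalized counts (mean ± SD, n = 7 each). Its log2 fold change of 0.03 had an SE of 0.06 and a 95% interval from -0.10 to 0.16, the narrowest of all members. Stat2, its partner in the complex (chromosome 10: 128270559 to 128292849), ran from 714 through a median of 871 to 1148 with IgG and from 701 through 892 to 1374 with anti-CD22. The anti-CD22 libraries were more spread, with replicates 1, 2 and 5 above every IgG library and replicate 4 below them all. The log2 fold change of Stat2 was 0.08 (SE 0.16), with a 95% interval from -0.25 to 0.41. Irf7, which amplifies the response by driving more interferon (chromosome 7: 141262706 to 141266481), ran from 339 through 599 to 715 with IgG and from 359 through 570.3 to 732 with anti-CD22. Its groups covered much the same range, with a log2 fold change of -0.05 (SE 0.17) and a 95% interval from -0.41 to 0.30. The adjusted p of the 3 factors lay between 0.844 and 0.921 in limma, and the signs of Stat2 and Irf7 changed under some of the alternatives in the closing section.

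All 5 sensors had a positive log2 fold change in limma and 0 passed the test, with adjusted p from 0.543 to 0.991. The sign of Ifi204 changed under 9 of 27 alternatives, down to -0.16 without anti-CD22 replicates 1, 2 and 3 together. Dhx58 was at -0.02 without anti-CD22 replicate 1. Ddx58, the RNA sensor RIG-I, was at 1426 ± 316 (IgG) and 1578 ± 170 (anti-CD22) normalized counts (mean ± SD, n = 7 each). Every anti-CD22 library was above the IgG median of 1315, but IgG replicates 2, 3 and 7 reached 1686 to 1809. Ifih1, the sensor of long viral RNA also called MDA5, had a log2 fold change of 0.18 (SE 0.13), with 4 of the 7 anti-CD22 values over the median of IgG. Dhx58, which tunes those RNA sensors, stood at 0.04, and Zbp1, a sensor of nucleic acid in the Z form, at 0.19 with an SE of 0.23. Ifi204, a DNA-binding member of another family, had a log2 fold change of 0.01 (SE 0.13).

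The 4 IFIT genes, whose proteins bind viral RNA and hold back its translation, lie together on chromosome 19 between 34550694 and 34650009 (GRCm38). All 4 had a positive log2 fold change, from 0.03 to 0.41, and 0 passed the test. The signs of Ifit1 and Ifit3b changed when single libraries were left out. Ifit2 ran from 533 through a median of 675 to 1092 normalized counts with IgG and from 717 through 949.7 to 1162 with anti-CD22. All 7 anti-CD22 libraries were above the IgG median and above 6 of the 7 IgG libraries. The groups overlapped because IgG replicate 3 was at 1092. The means were 702 ± 182 and 919.7 ± 155 (± SD, n = 7 each), a ratio of 1.31, and the log2 fold change was 0.41 (SE 0.14, adjusted p = 0.281). Leaving out single libraries gave 0.34 to 0.52.

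Ifit3 and Ifit3b, the pair with 54 identical bases at their promoter matches, were shaped by 1 library. Ifit3 ran from 1841 through 1935 to 2380 with IgG and from 1660 through 2227 to 3874 with anti-CD22. Only anti-CD22 replicate 5 was far from the rest, since the other anti-CD22 libraries ended at 2361. The log2 fold change of Ifit3 was 0.14 (SE 0.14, adjusted p = 0.691) and 0.01 without that library. Ifit3b ran from 610.1 through 716 to 871 with IgG and from 478 through 709.6 to 1354 with anti-CD22, where the highest value was again replicate 5. Its log2 fold change was 0.03 (SE 0.16, adjusted p = 0.962), and -0.12 without that library. The transcripts of the pair share sequence, with 31.7% of the 100-base stretches of Ifit3 and 27.4% of those of Ifit3b present in the other gene, so reads could be assigned to either. Ifit1 had a log2 fold change of 0.06 (SE 0.16).

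**Figure D3:**
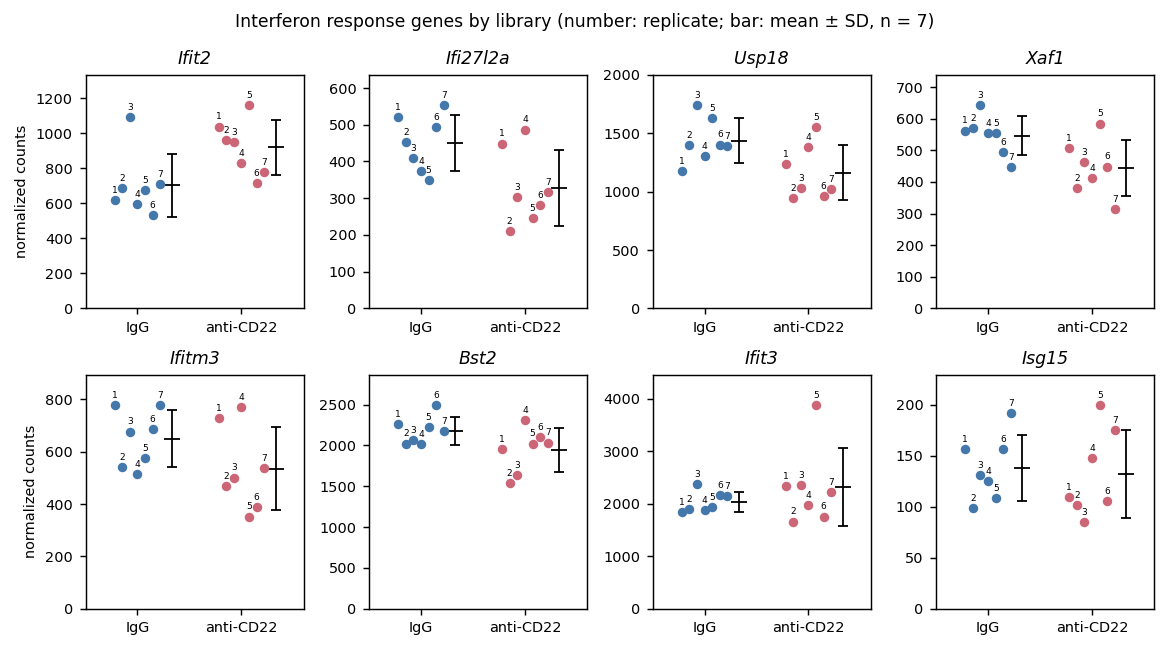
Normalized counts of 8 genes in each library, with the replicate number above each point and the mean ± SD beside each group (n = 7). Ifit2 is higher in the anti-CD22 libraries except for IgG replicate 3 at 1092. Ifi27l2a, Usp18, Xaf1, Ifitm3 and Bst2 have lower anti-CD22 medians with overlapping ranges, and anti-CD22 replicate 5 is the highest library for Ifit3, at 3874, and for Isg15, at 199.5.

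The oligoadenylate synthetases make a messenger that switches on an RNA-cutting enzyme in infected cells, and the OASL genes are their relatives. In this family 2 genes had a positive and 3 a negative log2 fold change, and 0 passed the test. Oas1a ran from 668 through 886 to 1098 normalized counts with IgG and from 669.8 through 784 to 929.8 with anti-CD22. Of the anti-CD22 libraries, 6 of 7 were below the IgG median, within the IgG range. Its means were 894 ± 137 and 767 ± 88.3 (± SD, n = 7 each), and its log2 fold change was -0.21 (SE 0.11, adjusted p = 0.415). Of the 100-base stretches of Oas1a, 40.9% occur in Oas1g too. Oasl2 stood at -0.13 (SE 0.11), and Oasl1, which in mouse cells holds back the translation of Irf7, at 0.03 (SE 0.32). Oas2 and Oas3 were low, at means of 12.1 and 11.6 normalized counts per kilobase. The log2 fold changes of 0.68 for Oas2 (SE 0.78) and -0.68 for Oas3 (SE 0.58) had errors about as large as themselves. Both depended on 1 library, since Oas2 was at -0.11 without IgG replicate 5, where it was at 0, and Oas3 at -0.13 without anti-CD22 replicate 2.

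The ubiquitin-like modifier Isg15 and the enzymes that attach and remove it had log2 fold changes of both signs, and 0 of the 3 passed the test. Isg15 (chromosome 4: 156199424 to 156200818), whose promoter carries 3 matches, ran from 98.6 through 131 to 192 normalized counts with IgG and from 84.8 through 109.8 to 199.5 with anti-CD22. The ranges nearly coincided, and the log2 fold change was -0.10 (SE 0.22, adjusted p = 0.887). Usp18, which removes Isg15 from proteins and also blocks the interferon receptor (chromosome 6: 121245906 to 121270917), ran from 1174 through 1399.9 to 1740.0 with IgG and from 945 through 1028 to 1553 with anti-CD22. Here 6 of 7 anti-CD22 libraries were below the IgG median, and the exception, replicate 5 at 1553, was above 5 of the 7 IgG libraries. The means were 1434 ± 192 and 1161 ± 235 (± SD, n = 7 each), and the log2 fold change was -0.32 (SE 0.12, adjusted p = 0.296). Herc6, the ligase that attaches Isg15 in mice, had a log2 fold change of 0.11 (SE 0.13).

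The 4 membrane and chaperone proteins all had a negative log2 fold change in limma, from -0.50 to -0.00, and 0 passed the test. The sign of Rtp4 changed under 13 of 27 alternatives, up to 0.20 in the libraries low in neutrophil markers described further on. Ifi27l2a, a small hydrophobic protein induced by interferon (chromosome 12: 103442167 to 103443680), ran from 349 through 453 to 554 normalized counts with IgG and from 211 through 304 to 487 with anti-CD22. Anti-CD22 replicates 2, 3, 5, 6 and 7 were below every IgG library, and replicates 1 and 4 lay within the IgG range. The means were 450.1 ± 76.8 and 328 ± 103 (± SD, n = 7 each), a ratio of 0.728, and the log2 fold change was -0.50 (SE 0.18, adjusted p = 0.289). Ifitm3, which keeps viruses from fusing with the cell (chromosome 7: 141009586 to 141010770), ran from 515 through 677 to 777 with IgG and from 353 through 502 to 771 with anti-CD22. Anti-CD22 replicates 1 and 4 were near the top of the IgG range while 4 of the others were below every IgG library. Its log2 fold change was -0.32 (SE 0.16, adjusted p = 0.428).

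Bst2 (chromosome 8: 71534255 to 71537456) ran from 2016 through 2179 to 2492 normalized counts with IgG and from 1536 through 2023 to 2307 with anti-CD22. The lowest values were anti-CD22 replicates 2, 3 and 1, at 1536, 1635 and 1956, which are the libraries with the steepest length trend. The log2 fold change of Bst2 was -0.18 (SE 0.09, adjusted p = 0.410), and -0.03 once the length and GC trend was removed. Rtp4, a chaperone of membrane receptors, stood at -0.00 (SE 0.12).

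Among the GTPases and nucleotide enzymes, 2 had a positive and 2 a negative log2 fold change, and 0 passed the test. Mx2, a GTPase annotated as a polymorphic pseudogene in GENCODE, was detected in all libraries at low level. It ran from 10.6 through 38.1 to 58.7 normalized counts with IgG and from 2.02 through 6.65 to 44.8 with anti-CD22. The anti-CD22 libraries were split, with replicates 2, 3, 6 and 7 below all IgG libraries and the rest within their range. The log2 fold change, on the scale of log2 of the normalized count plus 1, was -1.40 (SE 0.62, adjusted p = 0.363). It was -0.91 with a pseudocount of 8 and -1.05 without anti-CD22 replicate 3, which held the lowest value. In edgeR and DESeq2, which also leave that library out, it was -0.72 and -0.73. In the libraries low in neutrophil markers described further on, Mx2 stood at -0.26. Its relative Mx1 stood at -0.30 (SE 0.45). Rsad2, the antiviral enzyme viperin, and Cmpk2, a nucleotide kinase of mitochondria, lie next to each other on chromosome 12 and had log2 fold changes of 0.05 (SE 0.19) and 0.07 (SE 0.18). Cmpk2 ran from 269.8 through 351 to 389.6 with IgG and from 227 through 316 to 651 with anti-CD22. The value of 651 was anti-CD22 replicate 5, and without it the log2 fold change of Cmpk2 was -0.08.

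Of the 7 other effectors, 5 had a positive and 2 a negative log2 fold change, and 0 passed the test. Xaf1, which binds an inhibitor of cell death (chromosome 11: 72301629 to 72313733), ran from 446 through 555 to 643 normalized counts with IgG and from 315 through 448 to 585 with anti-CD22. Of the anti-CD22 libraries, 6 of 7 were below the IgG median, and replicate 5 was above it. The means were 547 ± 62.0 and 444 ± 87.4 (± SD, n = 7 each), and the log2 fold change was -0.31 (SE 0.13, adjusted p = 0.341). Trim30a, which dampens signalling by Toll-like receptors (chromosome 7: 104409025 to 104465193), ran from 1724 through 2039.8 to 2336 with IgG and from 1897 through 2084 to 2667 with anti-CD22. Its top values were anti-CD22 replicates 1, 2 and 3, from 2557 to 2667, above every IgG library. The log2 fold change of Trim30a was 0.19 (SE 0.09, adjusted p = 0.400), 0.11 after the length and GC trend was removed and 0.03 without those 3 libraries. The ADP-ribosyltransferase Parp14 stood at 0.15 (SE 0.20), and the Schlafen genes Slfn5 and Slfn8 at 0.15 (SE 0.32) and 0.06 (SE 0.16). Phf11d stood at 0.08 (SE 0.10) and Ifi44 at -0.36 (SE 0.39). Some members share sequence or exons with other genes, which makes their values uncertain. Of their 100-base stretches, 20.9% for Herc6, 16.8% for Ifi204 and 11.2% for Rtp4 occur in another gene. Slfn5, Usp18, Dhx58, Oasl1 and Irf7 overlap exons of antisense genes over 1.19% to 8.84% of their exon bases, and no strand-specific counting is stated.

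Transcript length moved with the differences of the members too. Across the 35 genes the correlation of log2 fold change with length was 0.49 by rank. The 18 members of at most 3240 bases had 7 positive and 11 negative values with a median log2 fold change of -0.07. The 17 longer members had 14 positive and 3 negative values with a median of 0.11. After the length and GC trend was removed in each library, these medians were -0.00 and 0.03. With it removed, 25 of 35 members had a smaller difference and 6 changed sign, while Ifit2 stood at 0.34, Ifi27l2a at -0.38, Usp18 at -0.23 and Xaf1 at -0.28. The lowest adjusted p among the members was then 0.451 in limma. Short and long members thus differed in sign before the trend was removed.

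How far the genes varied together between libraries was described with deviations from the mean of each library's own group, so that the group difference plays no part. The 595 pairs of members had a median correlation of 0.205 over the 14 libraries, beside -0.002 for all pairs of genes tested. The pairs ranged from -0.67 to 0.85. A correlation above 0.5 was found in 13.8% of pairs, beside 5.88% for all genes, and 25.0% of pairs were below 0. After removal of the length and GC trend it was 0.245, beside 0.002 for all genes. The range over libraries left out 1 at a time was 0.147 to 0.235, with the low end without anti-CD22 replicate 1. Members also varied more than other genes, with a median SD within groups of 0.34 on the log2 scale against 0.25. Libraries are the points in all these values, and they share depth and processing.

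The closest pairs lay both within and across roles. Ifi27l2a and Ifitm3, of the membrane group, had a correlation of 0.85 (0.83 by rank, 0.77 within IgG, 0.87 within anti-CD22, and 0.87 without the 2 libraries farthest from the median of Ifi27l2a). Herc6 and Slfn8 followed at 0.84, then Zbp1 and Ifih1 at 0.83, Irf7 and Rtp4 at 0.81 and Oasl2 and Dhx58 at 0.79. Herc6 and Slfn8 were also the members that followed each library's length trend most closely, at 0.72 and 0.87. Ifit3 and Ifit3b reached 0.84, with 0.58 within IgG and 0.88 within anti-CD22, and share sequence as described above. Ifit3b and Cmpk2 reached 0.76 with all libraries, but -0.07 without the 2 farthest libraries and -0.54 within IgG, so this value rested on anti-CD22 replicate 5. The lowest pairs were Bst2 with Ifi44, at -0.67, and Stat2 with Ddx58, at -0.61.

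**Figure D4:**
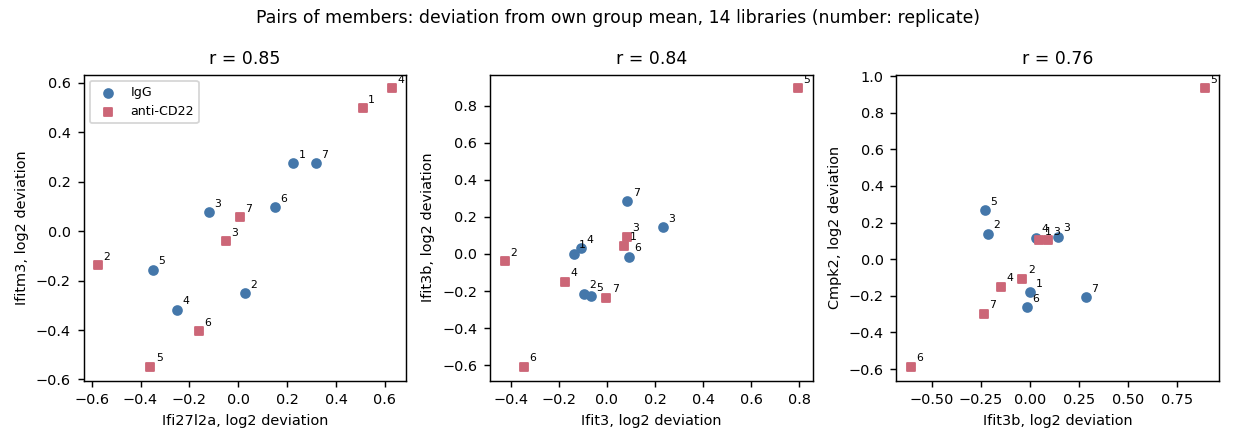
Deviation from the own group mean on the log2 scale for 3 pairs of genes in 14 libraries, with circles for IgG, squares for anti-CD22 and the replicate number beside each. Ifi27l2a and Ifitm3 line up over all libraries (r = 0.85), and Ifit3 with Ifit3b less so (r = 0.84), while the line of Ifit3b with Cmpk2 (r = 0.76) is drawn out by anti-CD22 replicate 5.

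By family, the 6 pairs of IFIT genes had a median correlation of 0.568, from 0.341 to 0.843. The 10 pairs of oligoadenylate synthetases and relatives had a median of 0.189, and the 3 pairs of the factors Stat2, Irf9 and Irf7 one of 0.101. Stat2 with Irf9, which work in 1 complex, stood at 0.25. Against the mean of all the other members, 12 genes had a correlation over 0.5, led by Ifih1 at 0.80, Ifit3b at 0.73 and Zbp1 at 0.72. Ifit1 at 0.01, Bst2 at 0.05 and Phf11d at 0.08 were at the low end. Isg15, often used as a marker of this response, stood at 0.28.

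Anti-CD22 replicates 1 and 5 were high for most members, and replicates 6 and 7 were low. The median deviation over the 35 genes from the IgG mean was 0.25 on the log2 scale in anti-CD22 replicate 5 and 0.21 in replicate 1. It was -0.21 in replicate 6 and -0.16 in replicate 7. The IgG libraries lay between -0.11 (replicate 4) and 0.15 (replicate 3). The SD of these library medians was 0.174 for anti-CD22 and 0.083 for IgG (n = 7 each), and that difference in spread was not tested. The means of the library medians were 0.02 for IgG and 0.01 for anti-CD22, so the groups did not differ in centre by more than their spread.

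Replicates 5 and 1 were high for different genes. Anti-CD22 replicate 5 was the highest of all 14 libraries for Ifit2, Ifit3, Ifit3b, Isg15, Irf7, Rsad2, Zbp1 and Cmpk2, and the lowest for Ifitm3. Anti-CD22 replicate 1 was the highest for Irf9, Oasl2, Oasl1, Ifi204, Rtp4, Ifih1 and Dhx58. Anti-CD22 replicate 2 was the lowest for 7 members, which include Usp18, Bst2 and Ifi27l2a, and the highest for Stat2, Oas2, Herc6 and Slfn8. IgG replicate 3 was the highest for Ifit1, Mx1, Usp18 and Xaf1.

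**Figure D5:**
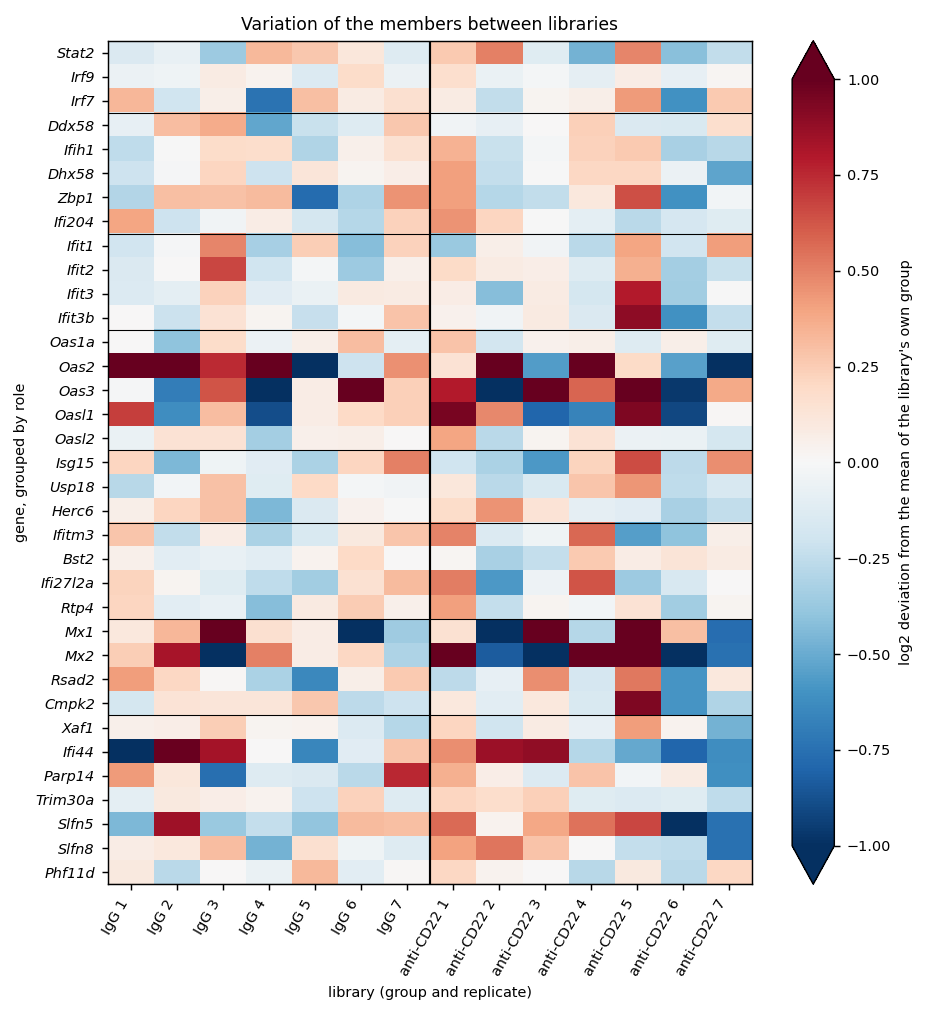
Log2 deviation of each gene in each library from the mean of the library's own group, with genes ordered by role and colours saturated at 1 and -1. The columns of anti-CD22 replicates 1 and 5 are mostly red and those of replicates 6 and 7 mostly blue, while the IgG columns are paler, with medians of the 35 genes from -0.11 to 0.15.

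The rest of the pathway was followed in 110 further genes, of which 104 were in the table and 89 were tested. None passed the test in limma, with 37 higher and 52 lower in anti-CD22 and a lowest adjusted p of 0.144. At an unadjusted p under 0.05, 8 were higher and 6 lower, together 15.7% of these genes against 12.8% of all genes tested. On recovered reads edgeR called 0 of the 89, and DESeq2 called Socs3 and Mavs and gave no adjusted p for 14. Over all genes edgeR called 0 of 11646, and DESeq2 called 40 of the 8747 with an adjusted p. The ligands were near absent. Of 11 interferon genes in the table, 10 were at 0 in all libraries, and a count of 0 allows up to 3 reads in a library, a limit that covers counting error only. Ifnb1, the main interferon of many cell types, was above 0 in 3 IgG and 2 anti-CD22 libraries, with at most 29.5 normalized counts in IgG replicate 3 and 30.8 in anti-CD22 replicate 4. The receptor chains were well expressed, with Ifnar1 at 3495 ± 345 (IgG) and 3752 ± 375 (anti-CD22) normalized counts (mean ± SD, n = 7 each), and a log2 fold change of 0.10 (SE 0.07). Ifnar2 had a log2 fold change of 0.00 (SE 0.05).

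Among the 8 receptors and kinases, 6 were higher and 2 lower, with Jak1 at 0.11 and Jak2 at 0.20 on the log2 scale. Of the 11 sensors and adaptors, 7 were higher and 4 lower. Mavs, the mitochondrial adaptor of the RNA sensors, ran from 2649 to 3511 normalized counts with IgG and from 3350 to 4135 with anti-CD22, and the log2 fold change was 0.27 (SE 0.07). The adjusted p of Mavs was 0.185 in limma, 0.387 in edgeR and 0.0465 in DESeq2. The Toll-like receptor Tlr3 stood at 0.17 (SE 0.07). Of the 10 interferon regulatory factors and their binding proteins, 1 was higher and 9 lower, and the median log2 fold change was -0.14. Irf8, a factor that defines microglia, was at 31188 ± 1578 (IgG) and 26561 ± 3262 (anti-CD22) normalized counts (mean ± SD, n = 7 each), and the log2 fold change was -0.24 (SE 0.07, adjusted p = 0.212). Irf2bpl stood at -0.48 (SE 0.14, adjusted p = 0.235).

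Of the 13 negative regulators tested, 3 were higher and 10 lower, with a median of -0.09 on the log2 scale that became 0.03 once the length and GC trend was removed. Socs3, which blocks cytokine receptor signalling, ran from 1216 to 1868 normalized counts with IgG and from 838 to 1229 with anti-CD22, and all 7 anti-CD22 libraries were below the IgG median. Its log2 fold change was -0.49 (SE 0.11), with an adjusted p of 0.144 in limma, 0.373 in edgeR and 0.0252 in DESeq2. Pias2 stood at 0.33 (SE 0.13, adjusted p = 0.326). Of 47 other interferon targets, 20 were higher and 27 lower, at a median of -0.06 on the log2 scale. The guanylate-binding protein Gbp7 stood at 0.34 (SE 0.12, adjusted p = 0.289) and the GTPase Irgm1 at 0.19 (SE 0.07, adjusted p = 0.309).

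Markers of other cells moved with some members and not with others. Neutrophil and monocyte marker sums were uneven across libraries, with monocyte sums of 144 to 9232 normalized counts with IgG and 90.0 to 2345 with anti-CD22. Ifitm3, which blood leukocytes also express, had a correlation of 0.48 with the neutrophil sum (0.58 by rank, and 0.24 without the 2 farthest libraries) and 0.56 with the monocyte sum (0.60 by rank, and 0.43 without them). These lists were not alone. Ifitm3 stood at 0.53 with the lymphocyte sum (0.71 by rank, and 0.69 without them), although that sum was near 0. It stood at 0.41 with neuron and glia markers and 0.32 with border macrophage markers (0.51 and 0.57 without them). With microglial and endothelial markers it stood at -0.35 and -0.25. The 3 libraries highest in Ifitm3, IgG replicates 1 and 7 and anti-CD22 replicate 4, were also the 3 highest in neutrophil markers. Ifi27l2a stood at 0.38 with the neutrophil sum (0.56 by rank, and 0.21 without the 2 farthest libraries) and 0.44 with the monocyte sum. It stood at -0.49 with microglial and -0.50 with endothelial markers. Other members went the opposite way. Xaf1 stood at -0.63 with the neutrophil sum (-0.43 by rank, and -0.54 without the 2 farthest libraries). Usp18 stood at -0.50 with it (-0.49 by rank, and -0.45 without them). Xaf1 and Usp18 stood at -0.45 and -0.43 with the monocyte sum, and at -0.22 and -0.44 with border macrophage markers. The 7 markers of border macrophages summed to between 104 and 1674 normalized counts with IgG and between 255 and 2439.8 with anti-CD22, with the highest sums in anti-CD22 replicates 2, 3 and 1. Bst2 had a correlation of -0.55 with that sum (-0.53 by rank, and -0.43 without the 2 farthest libraries). The part of border macrophages and monocytes in these differences was not tested. With the neutrophil sum as a covariate the log2 fold change of Ifitm3 was -0.29 and that of Ifi27l2a -0.48. In the 3 IgG and 3 anti-CD22 libraries with a neutrophil sum under 1000, Ifitm3 stood at -0.34, Usp18 at -0.34, Ifi27l2a at -0.26, Xaf1 at -0.19 and Ifit2 at 0.32. Among the 7 lymphocyte markers in the table, Cd3e, Gzma and Ms4a1 were at 0 in all libraries, and the sum of the 7 was at most 30.8. The markers of plasmacytoid dendritic cells, the main interferon producers of blood, summed to at most 22.9 apart from Bst2. The 6 endothelial markers summed to between 644 and 1201 normalized counts with IgG and between 885 and 1227 with anti-CD22, although Cldn5 and Slco1a4 were at 0 in all libraries.

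The precision of these values sets what could have been seen. The SE of a member's log2 fold change had a median of 0.16 and lay between 0.06 and 0.78, with 26 of 35 under 0.2. The 95% interval reached a median of 0.34 to either side. Counting error of the reads made up between 0.619% and 10.6% of the variance within groups, with the highest share for Mx2.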

How the data were processed

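RNA of sorted microglia was sequenced from 7 IgG and 7 anti-CD22 libraries as paired reads of 100 bases. Per the submitters' processing notes, bcl2fastq, STAR, the mm10 genome, SummarizedExperiment and DESeq2 were used. No version, annotation or filter is given in the labels used here. The deposited values are a signal, gene counts that the authors scaled by 1 size factor per library. Of 24421 entries, 27 with names turned into dates were left out, at most 0.149% of any library's counts, and 0 columns were without a sample. Sample titles gave the group and the number of each library.

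The members and gene lists were chosen with earlier results of these data known. limma 3.58.1 in R 4.3.3, with a mean-variance trend and two-sided moderated tests, was applied to log2(normalized count + 1) in the 11646 genes averaging 10 or more, adjusted by Benjamini-Hochberg over all of them at 0.05. Fold changes of low genes on this scale depend on the pseudocount. Values were whole multiples of 1 step per library within 0.1 reads (100% of values), which gave whole reads for 13 libraries. Anti-CD22 replicate 3, with a step of 1.01 close to 1, stayed out of edgeR 4.0.16 (quasi-likelihood) and DESeq2 1.42.0, where DESeq2 gave no adjusted p for 7088 genes. Counting values cover reads, not independent molecules. No 2 libraries agreed within counting error (lowest chi-square per gene 18.1).

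Values in full were given for the 8 members with the smallest p, for members with a library apart, and for Stat2, Irf9, Irf7, Isg15, Ifit3, Ifitm3 and Bst2. Of each other list the 2 with the smallest p and both receptor chains were named, and 1 further gene of the rule is not reported here. Promoters followed a set order of genes. Lengths and coordinates came from GENCODE vM21 (GRCm38, the assembly of mm10), with a length for 96.4% of tested genes. The length and GC trend was removed per library with natural splines of 4 degrees of freedom. Correlations across libraries are descriptions without a test.

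Alternatives were a pseudocount of 8, other filters and scalings, sample weights, a replicate block, count models and leaving out libraries. A neutrophil marker covariate and the subset of libraries with a neutrophil sum under 1000 were added after seeing the data. Tested on data simulated for this comparison over 11646 genes, the fit found 51 of 100 genes with a 1.5-fold change. It found 85 of 100 with a 2-fold change, with 0 in the wrong direction and 9 false calls. These values hold only for data with 100 changed genes of each size. The simulated counts were drawn for each gene on its own, without a length and GC trend or correlation between genes. In the measured libraries limma called 1 gene of 11646, and Socs3, at an unadjusted p of 1.86e-04, had an adjusted p of 0.144. Recovery with so few genes called was not tested. Tables and figures were made in Python 3.11.15 (pandas 2.3.3, numpy 2.4.6, matplotlib 3.10.9).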

Additional observations from a re-analysis of the deposited data

Results flagged for a closer look

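In 4 of the 70 sets formed by 35 genes and 2 groups, 1 library lay far from the other 6 by Dixon's gap test. Chance flags about 1 set in 20, which is 3.5 of 70. Ifit2 was at 1092 normalized counts in IgG replicate 3, while the other IgG libraries lay between 533 and 711. Without that library the log2 fold change of Ifit2 was 0.52 in place of 0.41. The other 3 sets share anti-CD22 replicate 5. Ifit3 was at 3874 there, with the others between 1660 and 2361, Ifit3b was at 1354, with the others between 478 and 777, and Cmpk2 was at 651, with the others between 227 and 366. Without that library the log2 fold changes were 0.01 for Ifit3, -0.12 for Ifit3b and -0.08 for Cmpk2. Ifit3 and Ifit3b share sequence, so their values are not independent. The neutrophil marker sum of anti-CD22 replicate 5 was 0, and its part in these values was not tested.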

How the results depend on the processing

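None of the 35 members passed an adjusted p of 0.05 under any of the 27 alternatives, and the lowest adjusted p was 0.147, without anti-CD22 replicate 7. The number of all genes past it was 1 in limma, 0 with the length and GC trend removed and 8 with sample weights. It was 0 with edgeR, 40 with DESeq2 (of 8747 with an adjusted p) and 2 with the neutrophil covariate. Without anti-CD22 replicates 1, 2 and 3 together it was 0. With single libraries left out it ran from 0 to 43, where 43 was without anti-CD22 replicate 7. The number of members at an unadjusted p under 0.05 was 5, and 2 without anti-CD22 replicates 1, 2 and 3, 1 in the libraries low in neutrophil markers, and 3 to 8 with single libraries left out. Counts over all 11646 genes moved too, from 792 higher and 693 lower in limma. They were 289 and 292 without anti-CD22 replicates 1, 2 and 3, and 650 and 420 in the libraries low in neutrophil markers. With single libraries left out, 588 to 1113 were higher and 485 to 861 lower. The subsets hold fewer libraries, and beyond that the cause was not tested.

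Of the 35 members 19 had the same sign under every alternative that gave them a value, and 16 changed sign under at least 1. The directions of Ifit2, Ifi27l2a, Usp18, Xaf1, Ifitm3, Bst2, Oas1a, Trim30a, Ifit3 and Irf9 were the same under all 27 alternatives. Some came close to 0, with Ifit3 down to 0.0065, Irf9 to 0.0066, Trim30a to 0.030 and Bst2 at -0.031. The alternatives reuse the same libraries and are not independent of each other. Irf7, Isg15 and Stat2 were among the 16. Irf7 stood at 0.0061 with the trend removed, at 0.037 in the libraries low in neutrophil markers, and from -0.18 to 0.048 with single libraries left out. Isg15 stood at 0.029 with the trend removed, 0.020 in edgeR and 0.017 in DESeq2, 0.18 without anti-CD22 replicates 1, 2 and 3, 0.13 in the libraries low in neutrophil markers, and from -0.20 to 0.00026 with single libraries left out. Stat2 stood at -0.080 without anti-CD22 replicates 1, 2 and 3, and from -0.0038 to 0.16 with single libraries left out. The median log2 fold change of the members ran from -0.04 to 0.10.

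Groups share replicate numbers, but same-numbered libraries had correlations from -0.145 to 0.160, and 2 of 7 IgG libraries correlated best with their own number. The numbers were therefore not taken as pairs. With a replicate block 2 genes and 0 members passed, and 8 members had an unadjusted p under 0.05. Of all 11646 genes, 841 were higher and 784 lower at that level with the block.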
